A study of Mus musculus with 64 samples.

Results

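The transcripts of wild type mouse hearts taken late in the dark phase, at zeitgeber time 21 (ZT21), were compared with those of hearts taken late in the light phase, at ZT9. Zeitgeber time counts hours from lights on, so the comparison spans 12 h. It rests on 8 of the 64 arrays of the series, all those labelled wild type at these times. They are 4 at ZT21 (sample numbers 156, 159, 199 and 200) and 4 at ZT9 (169, 173, 175 and 209). Both groups were male wild type littermates on the C57Bl/6J background, fed standard chow ad libitum under 12 h light and 12 h dark, and the labels name no treatment. What alleles they carry at the targeted locus is not stated in the labels. The other wild type hearts, at ZT0, ZT3, ZT6, ZT12, ZT15 and ZT18, place both times in the day. Knockout hearts at ZT21 and ZT9 (4 arrays each), from male mice on the same background and lighting with BMAL1 deleted in cardiomyocytes only, were used for a single comparison of the genotypes, and other cells of those hearts keep BMAL1. RNA from whole hearts was hybridized to Illumina MouseRef-8 v2 bead arrays, which report a light intensity for each probe.

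The circadian clock is a feedback loop of transcription found in nearly all cells, cardiomyocytes included. BMAL1 (gene Arntl) and CLOCK bind E-box sequences and switch on the genes of their own repressors, the PER and CRY proteins, and of the nuclear receptors REV-ERB alpha and beta (Nr1d1 and Nr1d2), which in turn repress Arntl through ROR elements. The factors DBP and TEF activate, and NFIL3 represses, a further set of genes through D-box sequences. In the heart the clock is known for daily rhythms in metabolism, in growth signalling and in ion channels.

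Between 9588 and 10278 of 25697 probes were detected per array at ZT21, and between 9586 and 10605 at ZT9. The median raw intensity was 124 to 183 at ZT21 and 146 to 173 at ZT9. Arrays of both groups spread about their group mean by 0.78 to 0.95 times (ZT21) and 1.01 to 1.08 times (ZT9) the spread of the median array of the series. Outside the comparison, 3 arrays spread more than 1.5 times as widely as the median array (knockout ZT9 replicates 170 and 206 and wild type ZT6 replicate 1), and they enter through the shared estimate of the spread. The 9 measured markers of ventricular cardiomyocytes were detected, Actc1 at a log2 intensity of 15.03 ± 0.05 at ZT21 and 14.95 ± 0.06 at ZT9 (SD, n = 4 each). Whether each numbered sample is a mouse of its own is not stated, so the p-values cover only the variation among samples, which may be partly technical.

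Late in the dark phase the clock repressor genes Ciart, Per1, Per2 and Per3, with Nr1d1 and Dbp, stood below their late-light level, while Arntl and Nfil3 stood above it. Of 9137 features tested, referred to as genes from here on (8449 with a name and 688 probes without), 94 (1.03%) differed at an adjusted p under 0.05, 34 (0.372%) higher and 60 (0.657%) lower at ZT21. Only these are said to have risen or fallen. Values are log2 normalized intensities, and a difference is ZT21 minus ZT9 in log2 units with its standard error. The median difference was -0.01 over all genes and 0.68 in size over the 94. A 2-fold change was exceeded by 7 genes that rose and 9 that fell, and a 1.5-fold change by 27 and 34. On 91 of the 94 the 4 ZT21 arrays did not overlap the 4 ZT9 arrays, as was the case for 9.77% of all genes. The 94 were picked on these same arrays, so separate groups describe them here and below and are not added support. At an unadjusted p under 0.05 there were 1128 genes (12.3%), 491 higher and 637 lower.

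The number of genes past the threshold depended on the arrays used. Leaving out 1 of the 8 arrays gave 12 to 83 higher and 23 to 95 lower genes. The counts moved by more than 1.5 times without ZT9 replicates 169 (83 higher and 95 lower), 173 (12 and 23) or 175 (13 and 28), without ZT21 replicates 156 (18 and 28) or 159 (16 and 31), and, for lower genes, without ZT21 replicate 200 (37). Scaling the arrays by their medians gave 10 higher and 10 lower genes in place of 34 and 60. Leaving the 3 widely spread arrays out of the fit gave 54 and 97, with all 34 and all 60 among them. In every alternative in which they were tested (up to 23), 15 named genes (Adam19, Arntl, Bhlhe40, Ciapin1, Ciart, Coq10b, Dbp, Ddit4, Gsta3, Nfil3, Nr1d1, Per2, Per3, Tcap and Tmem86a) and 1 unnamed probe passed. The other 78 of the 94 lost the call in at least 1 alternative, as Per1 did with median scaling and without ZT21 replicate 156, ZT21 replicate 200 or ZT9 replicate 173.

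The size of a difference depended on the background correction more than on the other choices. Without background correction, 39 of the 94 differences moved by more than 1.5 times, and with a larger offset (50) 12 did. Among the genes named below, the values without background correction were 0.88 in place of 2.08 for Arntl, -1.62 in place of -3.26 for Ciart, -1.52 in place of -2.46 for Nr1d1 and -0.44 in place of -1.39 for Per3. They were 0.51 for Cdkn1a, 0.43 for Clec3b, 0.38 for Auts2, 0.54 for Thrsp and 0.46 for Pgam1. Junb stood at -0.52, Scin at -0.44 and Col6a2 at -0.43. Folds are therefore those of the processing used here.

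**Figure D1:**
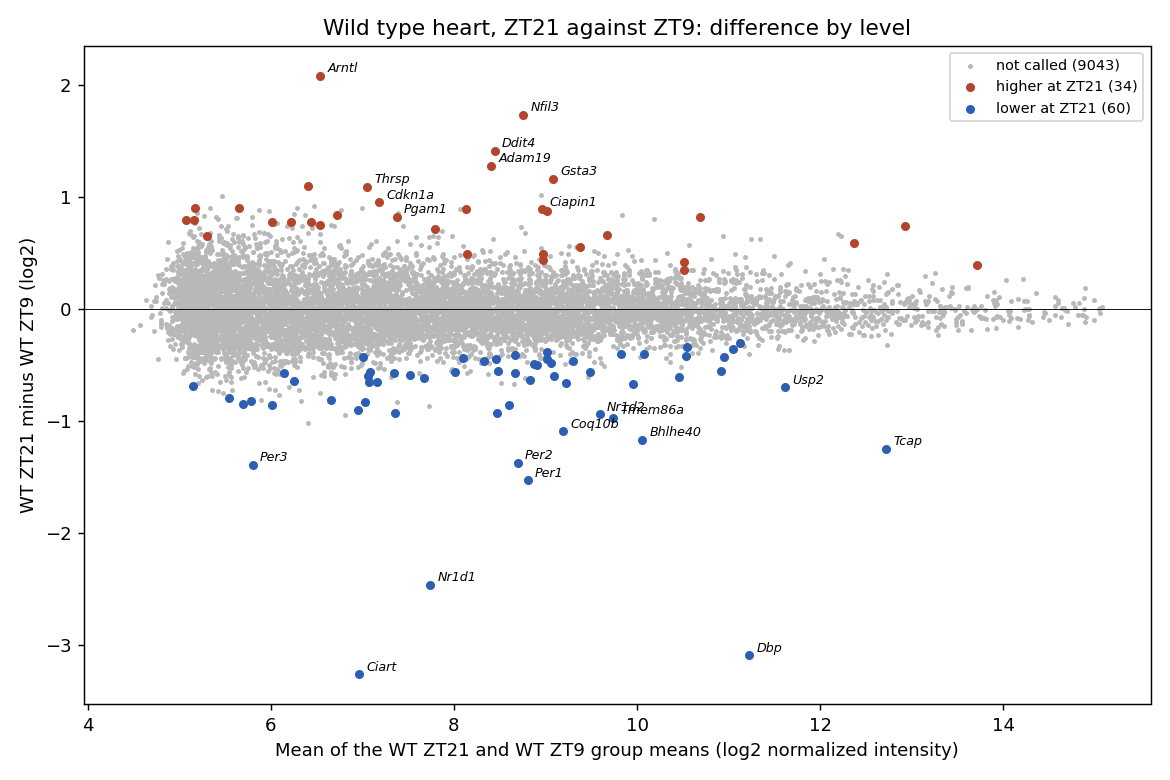
Difference between ZT21 and ZT9 in wild type hearts (y axis, log2) against the mean level (x axis, log2 normalized intensity) for 9137 genes. Red points rose (34) and blue points fell (60); Ciart, Dbp and Nr1d1 lie lowest, at -3.26, -3.09 and -2.46, and Arntl highest, at 2.08.

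The promoters of 6 genes are shown, picked from the genes that moved and whose window holds a motif of the loop. Other genes that moved held a match as well, for example Bmp4, Ehmt2, Timm9 and Tuba8. No match was found for Dbp, Nr1d1, Nr1d2, Per2, Bhlhe40 or Nfil3, and whether each of them had a window is not given here. The windows run from 250 bases before to 50 bases after the annotated start (RefSeq, build GRCm38.p6) and are written 5′ to 3′ on the strand of the gene. Capitals mark matches on either strand to the E-box (CACGTG), the D-box (TTATGTAA or TTACGTAA) or the ROR element (AGGTCA or GGGTCA preceded by AANT).
Ciart (chr3:95882179-95882478, minus strand): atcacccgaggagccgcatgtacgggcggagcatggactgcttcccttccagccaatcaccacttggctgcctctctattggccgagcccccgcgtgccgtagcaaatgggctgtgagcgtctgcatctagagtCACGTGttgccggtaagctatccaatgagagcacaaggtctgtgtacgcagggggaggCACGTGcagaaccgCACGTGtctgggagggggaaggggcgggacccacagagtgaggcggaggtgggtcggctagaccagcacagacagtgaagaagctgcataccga
Per1 (chr11:69098699-69098998, plus strand): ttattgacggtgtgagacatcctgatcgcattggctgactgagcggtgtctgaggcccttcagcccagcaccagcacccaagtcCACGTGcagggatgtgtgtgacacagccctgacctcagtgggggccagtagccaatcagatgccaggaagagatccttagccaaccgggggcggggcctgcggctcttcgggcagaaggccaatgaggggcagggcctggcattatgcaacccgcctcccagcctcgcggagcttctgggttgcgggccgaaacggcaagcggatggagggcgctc
Per3 (chr4:151044616-151044915, minus strand): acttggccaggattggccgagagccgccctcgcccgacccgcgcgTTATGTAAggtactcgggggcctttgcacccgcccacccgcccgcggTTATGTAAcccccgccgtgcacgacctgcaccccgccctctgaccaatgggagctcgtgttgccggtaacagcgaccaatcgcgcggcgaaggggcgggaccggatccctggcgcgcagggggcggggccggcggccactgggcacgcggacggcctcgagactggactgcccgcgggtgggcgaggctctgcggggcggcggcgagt
Coq10b (chr1:55052520-55052819, plus strand): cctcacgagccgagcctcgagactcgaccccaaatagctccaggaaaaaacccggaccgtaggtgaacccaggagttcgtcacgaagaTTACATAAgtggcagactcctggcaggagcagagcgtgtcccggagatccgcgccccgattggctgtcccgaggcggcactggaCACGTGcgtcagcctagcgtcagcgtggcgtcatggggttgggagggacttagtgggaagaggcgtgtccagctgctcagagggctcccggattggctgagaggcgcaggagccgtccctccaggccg
Adam19 (chr11:46054252-46054551, plus strand): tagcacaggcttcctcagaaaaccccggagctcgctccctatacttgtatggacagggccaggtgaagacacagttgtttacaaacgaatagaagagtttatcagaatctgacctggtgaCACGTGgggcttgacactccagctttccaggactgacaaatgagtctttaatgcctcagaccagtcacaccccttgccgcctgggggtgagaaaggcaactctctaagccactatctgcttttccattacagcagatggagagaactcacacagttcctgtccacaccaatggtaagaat
Arntl (chr7:113207261-113207560, plus strand): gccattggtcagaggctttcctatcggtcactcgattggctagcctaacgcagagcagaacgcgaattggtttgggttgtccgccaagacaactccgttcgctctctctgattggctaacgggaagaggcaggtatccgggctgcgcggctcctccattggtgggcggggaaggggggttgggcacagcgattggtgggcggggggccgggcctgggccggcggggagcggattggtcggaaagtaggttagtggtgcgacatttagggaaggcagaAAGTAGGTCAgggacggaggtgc
The Ciart window holds 3 E-boxes, those of Per1 and Adam19 1 each, that of Per3 2 D-boxes, that of Coq10b an E-box and a D-box, and that of Arntl 1 ROR element. Windows were at hand for 26 of the 34 genes that rose and 47 of the 60 that fell. Some genes had several windows (32 and 64 windows in all), and a gene counted where any of them held a match. An E-box lay in 4 of the 26 (15.4%) and in 12 of the 47 (25.5%), against 833 of 6895 tested genes (12.1%). A D-box lay in 0 of 26 and in 2 of 47, against 0.87% of tested genes, and a ROR element in 1 of 26 and 0 of 47, against 0.305%. A match describes the letters in the window and is not evidence of binding.

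Of the 14 measured core clock genes, 1 rose and 7 fell, with a median difference of -0.55. In the positive limb, Arntl measured 7.42, 7.55, 7.49 and 7.84 on the ZT21 arrays, against 5.78, 5.56, 5.73 and 4.92 on the ZT9 arrays. The groups lay well apart, and at ZT9 the probe was detected on 2 of 4 arrays only. The difference of 2.08 ± 0.20 (4.22-fold higher at ZT21, adjusted p = 1.6e-11) was the largest rise with this processing, whereas without background correction it was 0.88, below the 1.33 of Nfil3. Clock, the partner of BMAL1, measured 9.52 ± 0.09 at ZT21 and 9.38 ± 0.10 at ZT9 (SD, n = 4 each), a difference of 0.15 ± 0.15 (adjusted p = 0.739), so that of the 2 partners Arntl alone passed the test.

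All 3 Period genes, which encode repressors of BMAL1 and CLOCK, fell. Per1 measured 7.91, 8.40, 8.02 and 7.83 at ZT21 and 9.45, 9.74, 9.31 and 9.77 at ZT9, a difference of -1.53 ± 0.35 (adjusted p = 0.0145). Per2 measured 8.14, 8.39, 7.66 and 7.84 at ZT21 and 9.20, 9.58, 9.50 and 9.26 at ZT9, a difference of -1.37 ± 0.26 (adjusted p = 0.00139). Neither gene had overlapping groups, and a second probe of each also fell (-1.55 for Per1 and -1.16 for Per2). Per3 measured 5.07, 4.88, 5.51 and 4.96 at ZT21, where 1 of 4 arrays detected it, and 6.46, 6.60, 6.30 and 6.62 at ZT9, where all did. Its difference was -1.39 ± 0.17 (adjusted p = 1.23e-07), or -0.44 without background correction and -0.86 with the offset of 50. The sequence with 2 D-boxes printed above is its promoter.

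The largest fall with this processing was that of Ciart, which encodes CHRONO, another repressor of BMAL1 and CLOCK. It measured 5.30, 5.07, 5.31 and 5.62 at ZT21, near the detection limit (1 of 4 arrays), and 8.15, 8.93, 8.74 and 8.52 at ZT9. The difference was -3.26 ± 0.23 (9.57-fold lower at ZT21, adjusted p = 5.72e-16), and its second probe gave -3.68. Without background correction it was -1.62, a smaller fall than the -2.91 of Dbp. Bhlhe40 encodes DEC1, which competes for E-boxes. It measured 9.13, 9.51, 9.37 and 9.88 at ZT21 and 10.43, 10.65, 10.75 and 10.73 at ZT9, a difference of -1.17 ± 0.21 (adjusted p = 0.000341), again without overlap. Cry2, a Cryptochrome, was 0.10 ± 0.26 apart (adjusted p = 0.926), with SDs of 0.44 at ZT21 and 0.57 at ZT9.

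Both REV-ERB genes fell. Nr1d1 measured 6.30, 6.12, 6.91 and 6.72 at ZT21 and 9.08, 9.05, 8.78 and 8.96 at ZT9, a difference of -2.46 ± 0.21 (5.49-fold lower at ZT21, adjusted p = 3.67e-13). Nr1d2 measured 9.36, 9.23, 8.98 and 8.92 at ZT21 and 10.54, 9.85, 9.83 and 10.01 at ZT9, a difference of -0.94 ± 0.20 (adjusted p = 0.00779). In neither gene did the groups overlap, and a second probe of each fell too (-2.22 and -0.98). The opposing receptor gene Rora, an activator at ROR elements, differed by -0.11 ± 0.21 (adjusted p = 0.881), and Rorb was detected on 0 of the 8 arrays. The casein kinases that phosphorylate PER proteins differed by -0.16 ± 0.14 (Csnk1d, adjusted p = 0.691) and -0.16 ± 0.17 (Csnk1e, adjusted p = 0.755).

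**Figure D2:**
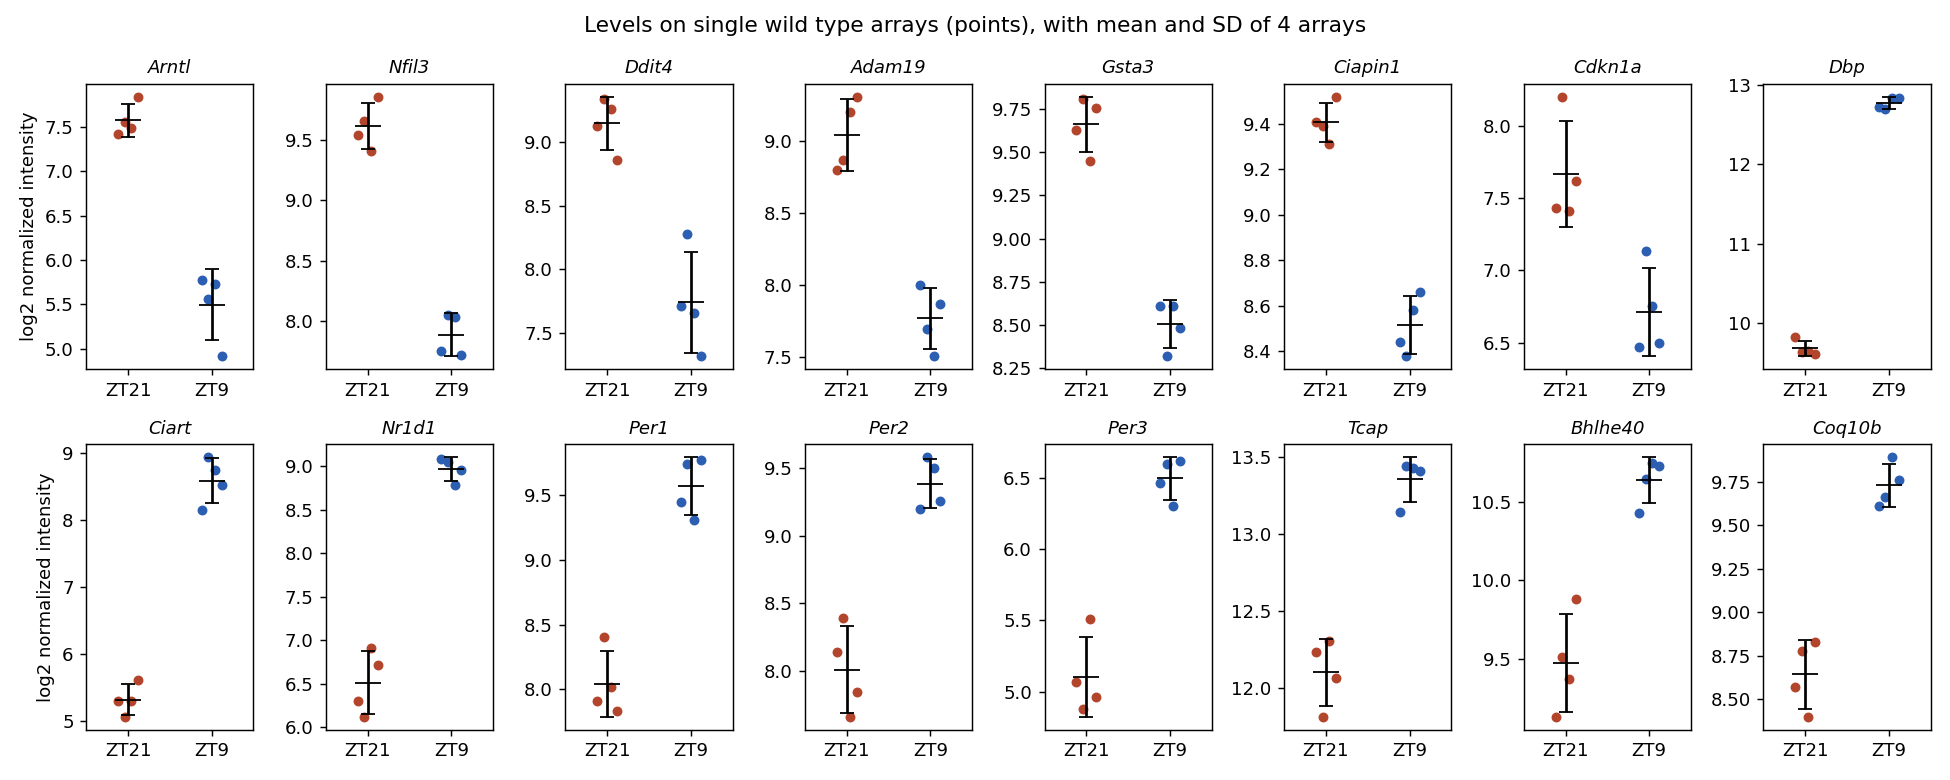
Levels of 16 genes on single wild type arrays (y axis, log2 normalized intensity; each panel has its own scale), with ZT21 in red on the left and ZT9 in blue on the right, and the mean ± SD of 4 arrays in black. In none of the 16 panels do the groups overlap; Arntl spans 7.42 to 7.84 at ZT21 and 4.92 to 5.78 at ZT9.

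Of 18 measured clock output genes, 3 rose and 4 fell (median 0.04). The list was drawn up with earlier results of these data known, so the count is not independent of them. The D-box factors moved in opposite directions. Dbp, the activator, measured 9.82, 9.64, 9.65 and 9.61 at ZT21 and 12.72, 12.69, 12.84 and 12.84 at ZT9. The arrays of each time lay within 0.21 of each other, and the difference was -3.09 ± 0.18 (8.54-fold lower at ZT21, adjusted p = 1.68e-19), the smallest p of the comparison. Nfil3, the repressor, measured 9.54, 9.66, 9.41 and 9.86 at ZT21 and 7.75, 8.05, 8.03 and 7.72 at ZT9. It rose by 1.73 ± 0.13 (3.32-fold higher at ZT21, adjusted p = 1.56e-15). Tef, the third D-box factor on the list, measured 9.37 ± 0.28 at ZT21 and 9.81 ± 0.20 at ZT9 (SD, n = 4 each), a difference of -0.44 ± 0.17 that did not pass (adjusted p = 0.233).

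Among the other outputs, Coq10b, whose product binds coenzyme Q in mitochondria, measured 8.57, 8.78, 8.40 and 8.83 at ZT21 and 9.61, 9.66, 9.89 and 9.76 at ZT9. It fell by 1.09 on the log2 scale (standard error 0.14, adjusted p = 2.64e-07), while its second probe, at -0.49, did not pass. Usp2, a ubiquitin protease, measured 11.22, 11.30, 11.27 and 11.27 at ZT21 and 11.99, 11.99, 12.06 and 11.83 at ZT9, a difference of -0.70 ± 0.13 (adjusted p = 0.000562). Both genes had separate groups. The metalloprotease gene Adam19 measured 8.80, 8.87, 9.20 and 9.31 at ZT21 and 8.00, 7.70, 7.51 and 7.87 at ZT9, a rise of 1.28 ± 0.15 (adjusted p = 2.25e-08). Cdkn1a encodes p21, an inhibitor of cyclin-dependent kinases, and measured 7.43, 8.20, 7.41 and 7.62 at ZT21 and 6.47, 7.13, 6.75 and 6.50 at ZT9 (0.95 ± 0.20, adjusted p = 0.00557).

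Besides Tef and Rbm3, 9 output genes did not pass: Klf9 (-0.36 ± 0.24), Slc41a3 (-0.17 ± 0.17), Herpud1 (0.04 ± 0.10), Nampt (0.04 ± 0.23), Gpcpd1 (0.07 ± 0.21), Klf15 (0.19 ± 0.28), Tsc22d3 (0.19 ± 0.13), Leo1 (0.31 ± 0.17) and Klf10 (0.36 ± 0.24). Their adjusted p lay between 0.474 and 0.972. Nampt makes the rate-limiting enzyme of NAD salvage, and Klf15 a factor that controls nitrogen and lipid use in the heart.

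Of the 2 cold-inducible RNA-binding genes, whose transcripts are known to rise on cooling, 1 fell. Cirbp measured 8.03, 7.88, 8.36 and 8.42 at ZT21 and 8.70, 9.13, 9.28 and 9.04 at ZT9, a difference of -0.86 ± 0.21 (adjusted p = 0.0192). Rbm3 measured 9.27 ± 0.27 at ZT21 and 9.69 ± 0.17 at ZT9 (SD, n = 4 each), a difference of -0.42 ± 0.32 that did not pass (adjusted p = 0.639) and was -0.01 with the mean of its probes. Of 22 heat shock and chaperone genes, which rise with temperature, 0 passed, 18 had a positive difference and the median was 0.18, against 4339 positive and 4798 negative differences and a median of -0.01 over all genes. Their mean level was 9.62, 9.93, 9.61 and 9.74 at ZT21 and 9.56, 9.46, 9.44 and 9.59 at ZT9, without overlap. Such a separation of mean levels was found for 11 of the 51 lists, 7 higher (among them glycogen metabolism, antioxidant and NAD metabolism, iron and heme, and the hypertrophy and fetal program) and 4 lower at ZT21. Within the heat shock list Hspb1, a small heat shock protein, differed by 0.65 ± 0.24 (adjusted p = 0.197) and Ahsa1, an activator of HSP90, by 0.49 ± 0.17 (adjusted p = 0.178).

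Hormone and stress responses gave a mixed picture. Of 23 glucocorticoid-responsive genes 2 rose (Ddit4 and Cdkn1a) and 1 fell (Per1), with a median of 0. Ddit4 encodes REDD1, an inhibitor of mTORC1, and measured 9.13, 9.34, 9.26 and 8.86 at ZT21 and 7.71, 8.28, 7.66 and 7.32 at ZT9. The groups were separate, with a rise of 1.41 ± 0.25 (2.65-fold higher at ZT21, adjusted p = 0.000292). It was the 1 gene of 28 in insulin, PI3K, Akt, mTOR and AMPK signalling to pass. Fkbp5, a co-chaperone of the glucocorticoid receptor, measured 6.55 ± 0.26 at ZT21 and 5.81 ± 0.27 at ZT9 (SD, n = 4 each), a difference of 0.74 ± 0.23 that did not pass (adjusted p = 0.111). Corticosterone itself was not measured.

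Among 12 immediate early genes, Junb and Ier3 fell and the median was 0. Junb, a subunit of the factor AP-1, measured 6.89, 6.92, 6.55 and 7.20 at ZT21 and 7.75, 7.84, 8.02 and 7.67 at ZT9 (-0.93 ± 0.25, adjusted p = 0.048). Ier3, which acts in stress survival, averaged 10.16 ± 0.17 at ZT21 and 10.76 ± 0.27 at ZT9 (SD, n = 4 each, -0.61 ± 0.15, adjusted p = 0.028). The groups of both were separate, though by only 0.04 in Ier3. Junb lost the call in 11 of 23 alternatives and Ier3 in 8. Ccn1 (0.56 ± 0.24, adjusted p = 0.317) and Zfp36 (-0.45 ± 0.19, adjusted p = 0.287) did not pass.

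Each list of fuel metabolism held at most 1 gene past the threshold. Thrsp, a promoter of fatty acid synthesis, was the 1 of 13 genes of malonyl-CoA and fatty acid synthesis to pass. It measured 7.94, 7.89, 6.96 and 7.61 at ZT21 and 6.44, 7.03, 5.48 and 7.08 at ZT9 (1.09 ± 0.28, adjusted p = 0.0364), and here the groups overlapped. Pgam1, a glycolytic mutase, was the 1 of 18 genes of glucose uptake and glycolysis, with 7.79, 7.88, 7.71 and 7.74 at ZT21 and 7.26, 6.76, 6.83 and 7.02 at ZT9 (0.82 ± 0.18, adjusted p = 0.00951). The muscle mutase Pgam2 differed by 0.15 ± 0.11 (adjusted p = 0.625). Ppp1r3c, which targets protein phosphatase 1 to glycogen and so favours its synthesis, was the 1 of 14 genes of glycogen metabolism, with 12.52, 12.67, 12.61 and 12.85 at ZT21 and 12.14, 12.07, 12.14 and 11.96 at ZT9 (0.59 ± 0.15, adjusted p = 0.0355). Of those 14 genes, 11 had a positive difference (median 0.16), among them Gys1, the muscle glycogen synthase (0.77 ± 0.28, adjusted p = 0.185). Over all genes 4339 of 9137 differences were positive. Thrsp lost the call in 10 of 23 alternatives and Pgam1 in 3. Ppp1r3c lost it in 8, most of them with 1 array left out.

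Most metabolic lists held no gene past the threshold. This was so for fatty acid uptake and oxidation (26 genes, median 0.04), triglyceride synthesis and lipid storage (23, median 0.04), the citric acid cycle with pyruvate dehydrogenase (26, median 0.01), branched-chain amino acid catabolism (16, median -0.03), ketone bodies (4, median -0.11), complex I (30, median 0.05) and complexes III to V (34, median 0.03). Closest to the threshold was Plin3, a lipid droplet coat protein (0.52 ± 0.14, adjusted p = 0.0578). Plin2, another coat protein, differed by 0.75 ± 0.24 (adjusted p = 0.129), and Slc2a1, the basal glucose transporter, by -0.46 ± 0.13 (adjusted p = 0.0685). Gsta3, a glutathione transferase, was the 1 of 32 genes of antioxidant and NAD metabolism to pass. It measured 9.63, 9.81, 9.45 and 9.76 at ZT21 and 8.61, 8.32, 8.61 and 8.48 at ZT9, a rise of 1.16 ± 0.16 (2.23-fold higher at ZT21, adjusted p = 3.1e-06) with separate groups.

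In the contractile apparatus a single gene of 20 moved. Tcap encodes telethonin, which caps titin at the Z-disc. It measured 12.23, 11.81, 12.30 and 12.06 at ZT21 and 13.14, 13.44, 13.43 and 13.41 at ZT9, a fall of 1.25 on the log2 scale (standard error 0.18, 2.39-fold lower at ZT21, adjusted p = 2.85e-06). The groups lay 0.84 apart at their nearest. Tnni3, cardiac troponin I, measured 12.55 ± 0.34 at ZT21 and 11.90 ± 0.57 at ZT9 (SD, n = 4 each), a difference of 0.65 ± 0.19 that did not pass (adjusted p = 0.0757). Neither ion channels (21 genes, median 0.01), calcium handling and gap junctions (18, median 0) nor the hypertrophy and fetal program (20, median 0.06) had a gene past the threshold. Nppb, the B-type natriuretic peptide, differed by 0.67 ± 0.27 (adjusted p = 0.261) and Kcnj12, an inward rectifier channel, by 0.56 ± 0.17 (adjusted p = 0.104).

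Of 33 extracellular matrix genes 3 fell, all collagens, and 25 had a negative difference (median -0.13). Over all genes 0.657% fell and 4798 of 9137 had a negative difference (median -0.01). Col6a2 measured 6.38, 6.68, 6.51 and 6.90 at ZT21 and 6.97, 7.68, 7.46 and 7.68 at ZT9 (-0.83 ± 0.18, adjusted p = 0.00696). Col15a1, a collagen of basement membranes, differed by -0.63 ± 0.16 (adjusted p = 0.0321) and Col5a1, a fibril collagen, by -0.50 ± 0.13 (adjusted p = 0.0355). Col6a1, the partner chain of Col6a2, did not pass (-0.47 ± 0.13, adjusted p = 0.0701), and no group overlapped in any of the 4. The call was lost in 5 of 23 alternatives for Col6a2, in 6 for Col15a1 and in 9 for Col5a1. The mean level of the 33 genes was 8.41, 8.57, 8.52 and 8.54 at ZT21 and 8.62, 8.60, 8.67 and 8.60 at ZT9. Of the 51 lists, 4 lay lower at ZT21 without overlap, this one included, and 7 lay higher. Of 11 fibroblast markers 0 passed, and their mean level was 8.80 to 8.87 at ZT21 and 8.72 to 8.81 at ZT9, ranges that overlap.

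Other lists gave little. Srsf6, a splicing factor, was the 1 of 29 splicing genes to pass (-0.49 ± 0.13, adjusted p = 0.0494). It lost the call in 13 of 23 alternatives, among them leaving out any 1 of the 8 arrays. None passed among 42 cytosolic ribosomal protein genes (median 0), 28 proteasome genes (median -0.01), 18 genes of the endoplasmic reticulum stress response (median -0.05), 22 interferon and antigen presentation genes (median 0) or 16 inflammation genes (median 0). In all, 37 of 51 lists held no gene past the threshold, and 63 named genes past it stood on no list.

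The whole heart holds many cell types, and a lower level may mean fewer cells of a type or less RNA per cell, which cannot be told apart here. Among 98 measured markers on 13 marker lists 0 passed. Red blood cell markers (4 genes, median 0.42, all 4 positive) had mean levels of 10.82, 11.09, 10.79 and 10.82 at ZT21 and 10.44, 10.76, 10.69 and 9.99 at ZT9, so every ZT21 array was above every ZT9 array. The same held for 6 skeletal muscle markers (7.69 to 7.81 at ZT21 and 7.35 to 7.55 at ZT9), of which Atp2a1 and Pvalb were detected on none of the 8 arrays. The part of blood or skeletal muscle in the differences above was not tested.

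**Figure D3:**
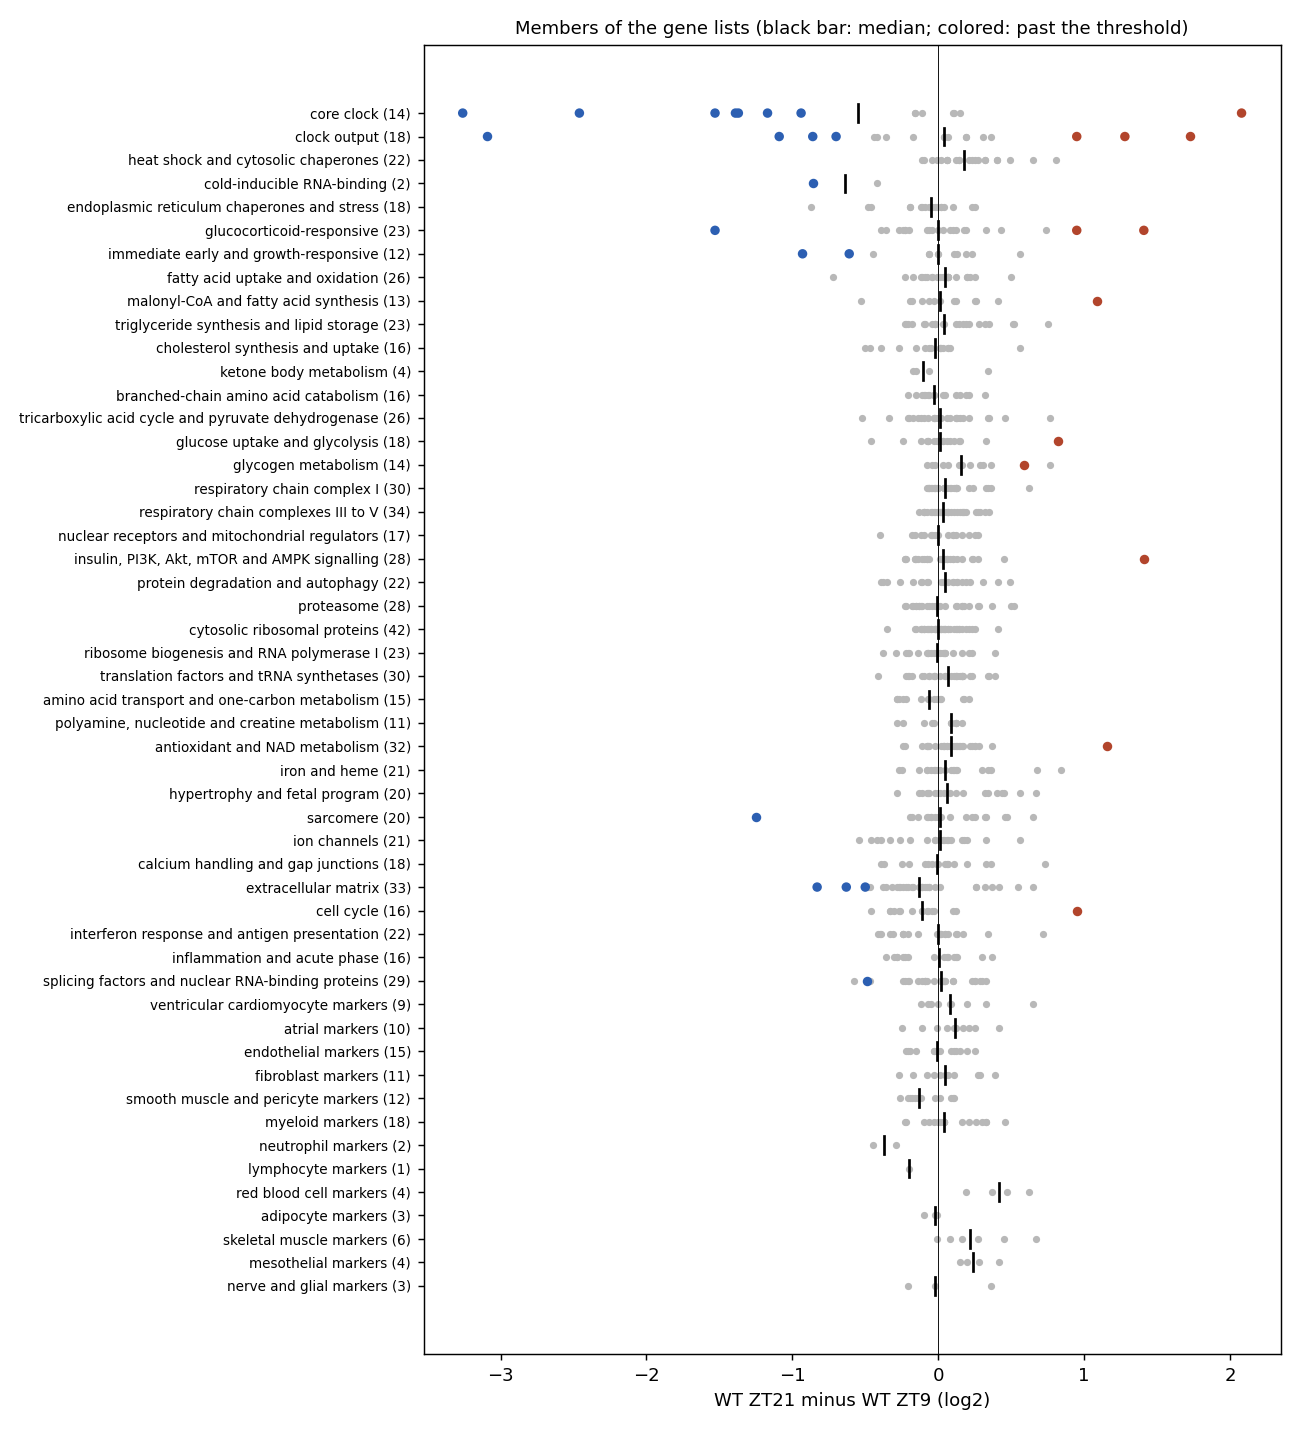
Differences between ZT21 and ZT9 in wild type hearts (x axis, log2) for the members of 51 gene lists (y axis, number measured in brackets). Grey points did not pass, red points rose, blue points fell and the black bar is the list's median; the core clock list has 8 of 14 members past the threshold.

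Several of the largest differences belonged to genes on no list. Tmem86a, a lysoplasmalogenase of membrane lipid turnover, measured 9.22, 9.10, 9.46 and 9.23 at ZT21 and 10.17, 10.24, 10.21 and 10.26 at ZT9 (-0.97 ± 0.15, adjusted p = 5.27e-05). Csrnp1, a nuclear factor, measured 7.63, 8.03, 8.42 and 7.95 at ZT21 and 9.16, 8.85, 8.78 and 8.95 at ZT9 (-0.93 ± 0.22, adjusted p = 0.0155). Scin, which severs actin filaments, measured 6.43, 6.37, 6.67 and 6.53 at ZT21 and 7.24, 7.39, 7.35 and 7.62 at ZT9 (-0.90 ± 0.20, adjusted p = 0.0111). All 3 had separate groups.

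On the rising side, Ciapin1, which helps to assemble cytosolic iron-sulfur clusters, measured 9.41, 9.39, 9.31 and 9.52 at ZT21 and 8.44, 8.38, 8.58 and 8.66 at ZT9 (0.89 ± 0.13, adjusted p = 3.35e-06). Clec3b, which encodes the secreted protein tetranectin, measured 7.06, 6.80, 7.17 and 6.79 at ZT21 and 6.51, 5.86, 5.41 and 5.64 at ZT9 (1.10 ± 0.23, adjusted p = 0.00484). Cited4, a transcriptional co-regulator known from the exercised heart, measured 9.21, 9.46, 9.57 and 9.57 at ZT21 and 8.42, 8.77, 8.93 and 8.20 at ZT9 (0.87 ± 0.20, adjusted p = 0.0111). The groups of these 3 genes did not overlap either.

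Adm encodes the vasodilator adrenomedullin. It was detected on 4 of 4 arrays at ZT21 (6.41, 5.94, 5.69 and 6.39) and on 0 of 4 at ZT9 (5.56, 4.67, 5.21 and 5.37), so the ZT9 level is only a bound, and with this processing the gene was at least 1.44-fold higher at ZT21 (adjusted p = 0.00951). That bound sets the ZT21 mean against the lowest signal of a detected probe on each ZT9 array, or the probe's own signal where higher. The fitted difference of 0.90 became 0.54 with the offset of 50 and 0.28 without background correction. In 6 of 23 alternatives the call was lost, with an adjusted p of up to 0.127: median scaling, the 8 arrays alone (normalized and fitted, or in the fit), and without ZT21 replicate 156, ZT21 replicate 200 or ZT9 replicate 173. Auts2 rose by 0.84 ± 0.21 (adjusted p = 0.0273) and Tuba8, an alpha tubulin, by 0.82 ± 0.19 (adjusted p = 0.0134), both with separate groups. Esyt2, a tether between endoplasmic reticulum and plasma membrane (0.78 ± 0.20, adjusted p = 0.0364), and Irak2, a kinase of interleukin-1 receptor signalling (0.78 ± 0.20, adjusted p = 0.0325), rose on 1 probe each, while their second probes gave -0.05 and 0.38 and did not pass.

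The 24 h course of the wild type shows where both times lie. The genes were picked for their difference between ZT21 and ZT9, so their extremes are a description without a test, and the hearts of ZT0, ZT6, ZT12 and ZT18 carry other sample numbers than those of ZT3, ZT9, ZT15 and ZT21. Of the 60 genes that fell, 49 had the highest of their 8 group means at ZT9, 32 the lowest at ZT21 and 9 at ZT0. Of the 34 that rose, 28 had their lowest mean at ZT9, whereas the highest fell at ZT0 in 13, at ZT21 in 11 and at ZT18 in 5. Among these picked genes an extreme fell at ZT9 more often than at ZT21. The pick itself favours extremes at both times, and the shares over all genes were not computed.

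The clock genes differed in where the slopes lay. Arntl averaged 8.04, 8.11, 7.15, 5.50, 5.35, 5.18, 6.25 and 7.58 from ZT0 to ZT21, with its trough at ZT15. Dbp averaged 9.14, 9.48, 11.31, 12.77, 12.59, 11.94, 10.86 and 9.68, and Per2 averaged 7.29, 6.38, 7.78, 9.38, 9.53, 9.52, 9.05 and 8.01. Per2 therefore stood on its falling slope at ZT21, with its trough at ZT3. Nr1d1 ran ahead of both, at 7.30, 8.11, 8.85, 8.97, 8.24, 7.11, 6.71 and 6.51.

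Among genes that rose, Nfil3 averaged 9.87, 9.39, 8.04, 7.89, 8.02, 8.80, 9.53 and 9.62 over the same times, a trough about ZT9. Gsta3 averaged 9.30, 8.62, 8.29, 8.51, 9.19, 9.75, 10.03 and 9.66, highest at ZT18. Ddit4 averaged 9.30, 9.10, 8.33, 7.74, 8.96, 9.19, 9.12 and 9.15, and was thus low about ZT9 against a level range of 8.96 to 9.30 at 6 other times.

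**Figure D4:**
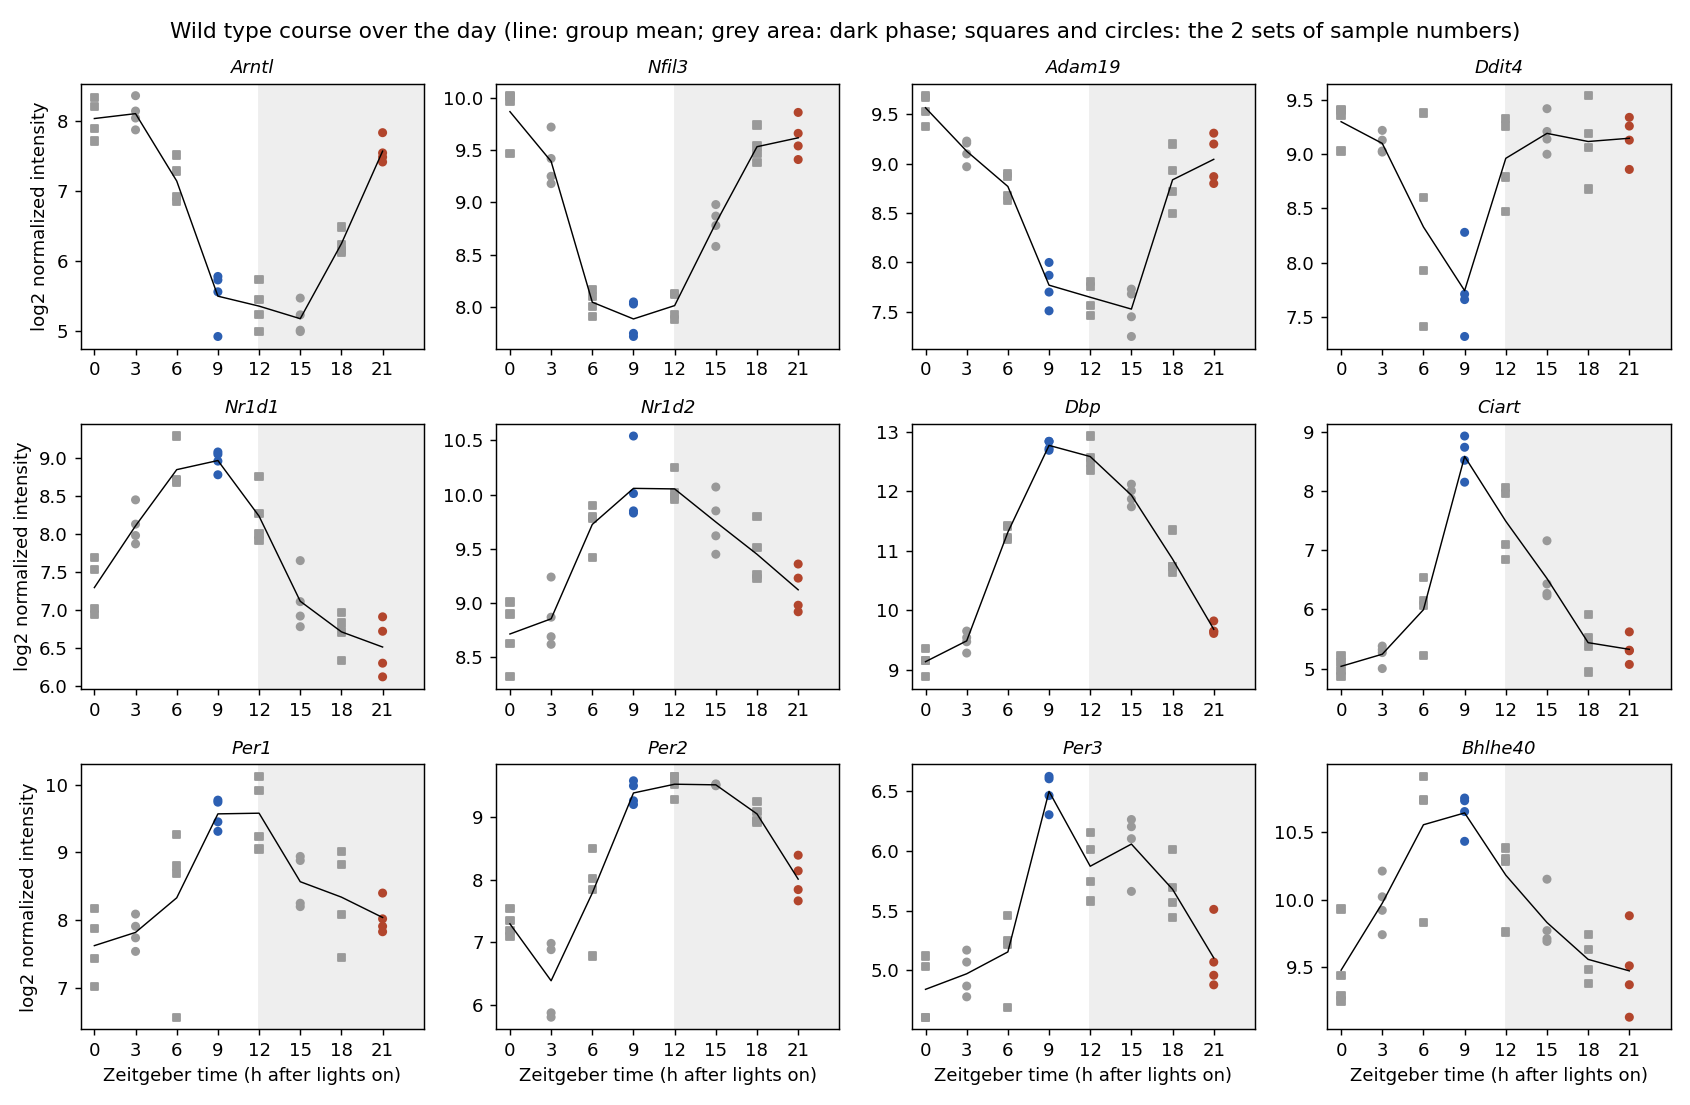
Wild type course of 12 genes over the day (x axis, hours after lights on; y axis, log2 normalized intensity, each panel with its own scale). Points are arrays (red ZT21, blue ZT9, grey other times; squares and circles mark the 2 sets of sample numbers), lines join group means and the grey area is the dark phase; Arntl is lowest at ZT15 (5.18) and Dbp highest at ZT9 (12.77).

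The wild type hearts of ZT15 and ZT3, whose levels took no part in choosing these genes, were compared in the same way. Both comparisons use the same fit and the same standard error for a gene, so a gene picked partly for a small spread is more likely to pass in both, and the counts are not independent of the choice. Of the 9137 genes 0.799% differed between ZT15 and ZT3, and of the 94 genes 19 did. Of the 60 lower genes 12 were higher at ZT15 than at ZT3 and 1 was lower, and of the 34 higher genes 1 was higher and 5 were lower (0.482% and 0.317% of all genes). Per2 differed most, by 3.13 (adjusted p = 4.63e-13), followed by Arntl at -2.94 (adjusted p = 7.88e-17) and Dbp at 2.45 (adjusted p = 1.99e-15). The 1 lower gene that was lower at ZT15 was Nr1d1 (-0.99, adjusted p = 0.00383), and the 1 higher gene that was higher was Gsta3 (1.13, adjusted p = 4.85e-06). The 2 comparisons are of other times of day, so the sign of one does not fix that of the other. In 42 of the 94 genes both the ZT15 and the ZT3 mean stood nearer to the ZT21 than to the ZT9 mean. The same share over all genes was not computed.

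The difference between ZT21 and ZT9 was then set against that in knockout hearts. Arntl itself, the targeted gene, measured 6.92, 7.08, 7.10 and 7.05 in knockout hearts at ZT21 and 5.77, 6.34, 6.62 and 5.31 at ZT9, and whether its probe lies in the deleted part is not known here. Of the 94 genes, 84 differed in the same direction in knockout hearts (31 of the 34 and 53 of the 60, or 89.4% of the 94), against 63.2% of all 9137 genes. A difference too small to show at 2 decimals counted as not in the same direction, so the 63.2% is a low estimate. Since the 94 were picked for their difference in wild type hearts, the sizes in the 2 genotypes are not compared over them. In knockout hearts 400 genes (4.38%) passed between the times, 26 of the 94 among them, but without the 3 widely spread arrays, 2 of which are knockout hearts at ZT9, only 6 genes passed, 4 of the 94 among them. Leaving those arrays out also leaves fewer knockout hearts at ZT9, and the reason for the lower count was not tested. The test of the difference between the genotypes, used below, includes the same knockout ZT9 arrays.

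Over all genes 4 (0.0438%) differed between genotypes, and all 4 were among the 94. The wild type difference enters both tests, so genes picked for it are favoured in the test between genotypes, and the overlap is not added support. Nfil3 measured 10.31, 10.12, 10.36 and 10.07 in knockout hearts at ZT21 and 10.24, 10.13, 10.07 and 9.96 at ZT9. It was therefore high at both times, with a difference of 0.11 ± 0.13 in knockout hearts and 1.73 ± 0.13 in wild type hearts (knockout minus wild type -1.62 ± 0.18, adjusted p = 2.43e-08). Adam19 was high at both times as well, with 9.62, 9.85, 9.73 and 9.80 in knockout hearts at ZT21 and 9.33, 9.70, 9.96 and 9.42 at ZT9. Its difference was 0.15 ± 0.15 in knockout hearts and 1.28 ± 0.15 in wild type hearts (knockout minus wild type -1.12 ± 0.21, adjusted p = 0.00472).

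The other two were low at both times in knockout hearts. Ciart measured 4.92, 5.14, 5.53 and 4.84 there at ZT21 and 5.53, 5.58, 5.91 and 6.00 at ZT9. Its difference was -0.65 ± 0.23 in knockout hearts and -3.26 ± 0.23 in wild type hearts (knockout minus wild type 2.61 ± 0.33, adjusted p = 4.84e-07). Coq10b measured 7.81, 8.05, 8.02 and 8.17 in knockout hearts at ZT21 and 7.83, 8.02, 7.92 and 8.04 at ZT9. Its difference was 0.06 ± 0.14 in knockout hearts and -1.09 ± 0.14 in wild type hearts (knockout minus wild type 1.15 ± 0.20, adjusted p = 0.000978). Nfil3 and Ciart passed in every alternative (Ciart at 1.44 without background correction), Adam19 did not with median scaling or with the 16 arrays fitted alone, and Coq10b did not with median scaling or when its probes were averaged.

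Dbp, Nr1d1 and Gsta3 differed between the times in knockout hearts too. Dbp measured 8.47, 8.51, 8.65 and 8.75 in knockout hearts at ZT21 and 10.70, 10.91, 11.30 and 11.26 at ZT9, a difference of -2.45 ± 0.18 (knockout minus wild type 0.65 ± 0.25, adjusted p = 0.521). Nr1d1 differed by -1.73 ± 0.21 in knockout hearts (knockout minus wild type 0.73 ± 0.29, adjusted p = 0.528), and Gsta3 by 1.36 ± 0.16 (knockout minus wild type 0.20 ± 0.23, adjusted p = 0.887). Such p-values do not show that the genotypes were alike in Dbp, Nr1d1 and Gsta3. Per1 differed by -0.04 ± 0.35 and Per2 by -0.14 ± 0.26 in knockout hearts, but neither difference between genotypes passed (1.49 ± 0.50, adjusted p = 0.416, for Per1, and 1.23 ± 0.37, adjusted p = 0.346, for Per2). Of the 10 named genes with the smallest p for this difference, the other 6 did not pass. They were Yju2 (-1.11 ± 0.27, adjusted p = 0.196), Per3 (0.99 ± 0.24, adjusted p = 0.206), Cited4 (-1.11 ± 0.28, adjusted p = 0.206), Dhx36 (0.55 ± 0.14, adjusted p = 0.272), Zfp979 (0.89 ± 0.23, adjusted p = 0.272) and Arntl. Yju2 was detected on 0 of the 8 wild type arrays. That of Arntl (-1.05 ± 0.28, adjusted p = 0.272) did not pass, but it did with array weights (-1.37), without knockout ZT9 replicate 206 (-1.29) and without the 3 widely spread arrays (-1.52). Yju2 likewise passed in 3 alternatives, and Per3, Dhx36 and Zfp979 in 1 each, whereas Cited4 passed in none.

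**Figure D5:**
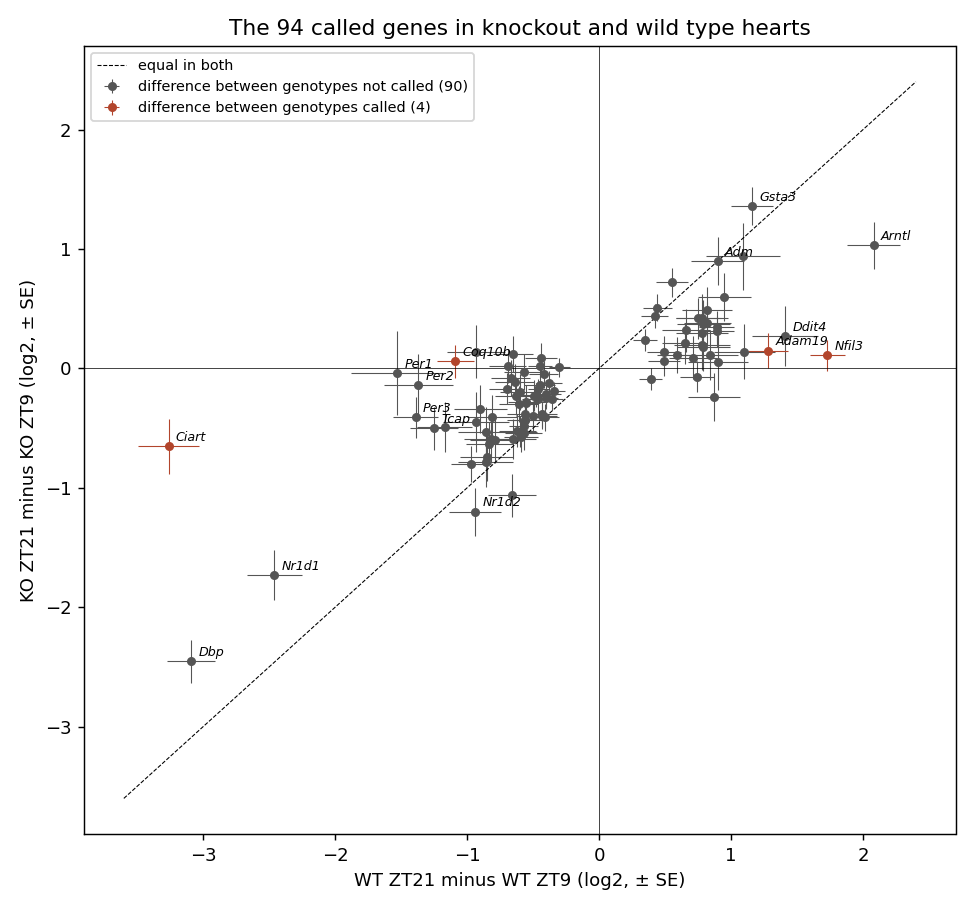
Difference between ZT21 and ZT9 in knockout hearts (y axis) and wild type hearts (x axis) for the 94 genes (log2, bars are standard errors; the dashed line marks equal differences). The 4 genes in red, Nfil3, Adam19, Ciart and Coq10b, differ between genotypes; Dbp lies at -2.45 in knockout hearts and -3.09 in wild type hearts.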

How the data were processed

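The members and the gene lists were chosen with earlier results of these data known. Per the file headers, the authors deposited each array's mean bead intensity by probe, not normalized, and beside it a detection p-value. They also deposited processed intensity values, which ranked the probes of each array as its own scanner values did (Spearman 1 on 64 of 64 arrays, 26.2% below 0) and served as an alternative. The scanner software, slide and scan batch are not given in the sources used here.

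Intensities were background corrected (normexp from the detection p-values, offset 16), quantile normalized over 64 arrays and log2 transformed in R 4.3.3 with limma 3.58.1. A probe was kept where its detection p fell below 0.01 in 4 or more arrays (12101 of 25697). The platform annotation gives 23978 probes 1 gene symbol, 0 several and 1719 none; RefSeq matched 23971, and 8 symbols changed. Each gene kept its probe with the highest mean. Group means of 16 groups were fitted to all 64 arrays with limma (48 residual degrees of freedom), with Benjamini-Hochberg adjustment over 9137 features and a threshold of 0.05. On simulated data the fit recovered 30 of 100 differences of 0.5 in log2 units and 91 of 100 of 1, with 9 false calls. Most differences of 0.5 would thus be missed. The simulated spread of a gene was the same on every array, so widely spread arrays were not imitated. The number of arrays limits the precision, and no 2 arrays were identical.

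The genes described were drawn from 263 that a rule selects: all measured core clock and clock output genes, the 15 largest rises and 15 largest falls past the threshold without overlap and detected on 4 of 4 arrays of the higher group, up to 5 genes of smallest p in each of the other lists (51 lists, 1173 entries), and the 10 genes of smallest p between genotypes. Of the genes the other lists gave, only part are described. Genes of the lists without a tested probe were not analysed here. Alternatives changed the background correction, normalization, detection filter, arrays in the fit, choice of probe and weighting, and left out each array.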

Additional observations from a re-analysis of the deposited data

Results flagged for a closer look

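In 4 genes the difference between ZT21 and ZT9 itself differed between genotypes, by the interaction term of the fit. It was -1.62 for Nfil3, -1.12 for Adam19, 2.61 for Ciart and 1.15 for Coq10b (knockout minus wild type, log2), as described above.

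Among the 4 arrays of a group, 1 stood far from the others in 5 of the 188 groups examined (94 genes at 2 times, 2.66%), where chance gives about 1 in 20. The value given is that array's gap to the nearest of the others over the range of the group. ZT9 replicate 169 was the highest for Gng2 (0.936) and Mettl14 (0.836) and the lowest for Tcap (0.885). ZT21 replicate 199 was the highest for Trpv4 (0.86) and ZT21 replicate 200 for the unnamed probe ILMN_1377918 (0.847).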

How the results depend on the processing

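No paired analysis was possible because the hearts at ZT21 and at ZT9 share no sample number. Of the 94 genes, 16 passed under all alternatives in which they were tested and 26 whenever 1 of the 8 arrays was left out. Against 34 higher and 60 lower genes, median scaling gave 10 and 10, the 8 arrays normalized and fitted alone 13 and 36, the 8 arrays alone in the fit 14 and 35, array weights 228 and 319, the 32 wild type arrays 100 lower, and the fit without the 3 widely spread arrays, an alternative chosen after seeing the data, 54 and 97. Leaving out 1 array gave 12 to 83 higher and 23 to 95 lower. For the 4 genes that differed between genotypes (2 higher, 2 lower, knockout minus wild type), the higher count was 1 with median scaling, 1 with probes detected on at least 32 arrays and 1 with the mean of all probes, and the lower count 1 with median scaling, 1 with the 16 arrays normalized and fitted alone, 1 with those arrays alone in the fit and 5 with array weights. Leaving out 1 array gave 2 to 11 higher and 2 to 4 lower. Without 1 array, genes that had not passed ranged across or to 0: Cry2 from -0.18 (without ZT9 replicate 209) to 0.28, also -0.02 without ZT21 replicates 156 or 159, Gpcpd1 from 0 to 0.14, Herpud1 from 0 to 0.08, Klf15 from -0.01 to 0.45 and Nampt from -0.05 to 0.09. With the mean of all probes Gpcpd1 was -0.05. Esyt2, which had passed, became -0.05 with the 8 arrays normalized alone, where its other probe was the brighter. For the settings that moved a count the cause was not tested. In their lower group, 8 of the 94 genes were detected on 0 of 4 arrays, where the level is only a bound.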

Other observations

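Among genes on no list, chosen after their values were seen, several genes of methylation and transcription differed. Prmt2, an arginine methyltransferase, measured 8.22, 8.14, 8.16 and 8.34 at ZT21 and 8.75, 8.89, 8.67 and 8.74 at ZT9 (-0.55 ± 0.09, adjusted p = 7.52e-05). Ehmt2, a histone H3 lysine methyltransferase, fell by 0.56 ± 0.14 (adjusted p = 0.03) and Cxxc1, a subunit of a histone methyltransferase complex, by 0.40 ± 0.09 (adjusted p = 0.0101). Hbp1, a repressor of cell cycle genes, fell by 0.55 ± 0.14 (adjusted p = 0.0375). Mettl14, a subunit of the RNA adenosine methyltransferase, rose by 0.49 ± 0.12 (adjusted p = 0.0222), and Pcif1, which methylates adenosine next to the mRNA cap, fell by 0.60 ± 0.13 (adjusted p = 0.00592). The p-values are limma's.

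Pik3c3, a lipid kinase of autophagosome formation, measured 8.41, 8.26, 8.44 and 8.41 at ZT21 and 8.94, 9.05, 8.85 and 8.96 at ZT9 (-0.57 ± 0.11, adjusted p = 0.000744). Bmp4, a growth factor, fell by 0.65 ± 0.17 (adjusted p = 0.0406), Stc2, a secreted glycoprotein, by 0.65 ± 0.15 (adjusted p = 0.0167) and Ky, a muscle protein, by 0.67 ± 0.15 (adjusted p = 0.00951). Homer1, a scaffold protein, rose by 0.55 ± 0.12 (adjusted p = 0.00789). Without background correction the differences were -0.37 for Ehmt2, -0.31 for Pcif1, -0.33 for Bmp4 and -0.34 for Stc2. With the mean of all tested probes Ehmt2, Pcif1 and Hbp1 lost the call. Each of the 11 genes lost it in some of the 23 alternatives, from 1 for Prmt2 and Pik3c3 to 10 for Hbp1 and 11 for Bmp4. In each of these 11 genes the ZT21 and ZT9 arrays did not overlap, and no theme among them was tested.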
